A study of Mus musculus with 8 samples.

Results

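Pip was measured in 16 mouse mammary tumours, and its level spread over 8.78 on the log2 scale between the highest and the lowest of them. It is represented by 1 probe (transcript NM_008843) among 28026 named probes of 21154 genes, and it is 1 of the 14147 genes bright enough to be fitted. It was selected on its measured differences between the treatment groups of these same tumours, so its values are given without a test. The tumours were pieces of MMTV-PyMT mammary tumours growing orthotopically in wild-type FVB mice. MMTV-PyMT is a transgene that drives the polyoma middle T oncogene from a promoter active mainly in mammary epithelium. Treated mice received RANK-Fc, a decoy that binds the cytokine RANK ligand, intraperitoneally at 10 mg/kg in 3 injections a week. RNA was hybridised in pairs to 8 Agilent arrays with 2 colours, so that each tumour fills 1 channel, Cy5 or Cy3.

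Passage 1 held 2 control tumours and 3 treated with RANK-Fc, and passage 2 held 11 tumours in 4 groups. These were 2 controls, 3 tumours with RANK-Fc in passage 2 (called current here), 3 whose treatment lay in the earlier passage (prior), and 3 with both (prior and current). Reading the neoadjuvant treatment of the labels as treatment in passage 1 rests on the group codes. Descent of the passage 2 tumours from particular passage 1 tumours, the agent given to control mice and the age of the mice are not stated in the labels. Every tumour had its own animal code, but tumours that descend from the same passage 1 tumour are not independent, and the spread within a group may then be too small. All control and treated tumours carry the transgene. Replicate numbers below only name tumours.

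PIP, the prolactin-inducible protein, is a small secreted glycoprotein of mammary, salivary, lacrimal and other apocrine glands, known in human pathology as GCDFP-15, a marker of apocrine differentiation. In breast cancer cells its gene is switched on by androgens and by prolactin, the latter through the transcription factor STAT5. The protein is reported to bind CD4, fibronectin, actin and the zinc-binding glycoprotein AZGP1, and to associate with the water channel aquaporin 5. RANK ligand is itself a product of hormone-responsive mammary cells and drives alveolar growth through RANK.

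The start of the gene is shown because prolactin and STAT5 belong to its known control and because other genes moved with it in these tumours. Of the RefSeq promoter windows of assembly GRCm38.p6, each with 250 bases before and 50 after a transcription start, those of Pip (chr6:41847299-41847598, plus strand), the beta-casein gene Csn2 (chr5:87699376-87699675, minus strand) and the secretoglobin gene Scgb2b20 (chr7:33366270-33366569, minus strand) read as follows in the direction of transcription. Capitals mark TTCNNNGAA, the palindromic core recognised by STAT5, which reads the same on both strands.
Pip: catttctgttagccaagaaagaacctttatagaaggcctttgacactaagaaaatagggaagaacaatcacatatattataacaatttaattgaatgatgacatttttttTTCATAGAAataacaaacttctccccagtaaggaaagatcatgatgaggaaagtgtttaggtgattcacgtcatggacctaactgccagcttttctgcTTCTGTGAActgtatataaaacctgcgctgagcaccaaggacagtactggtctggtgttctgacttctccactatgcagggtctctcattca
Csn2: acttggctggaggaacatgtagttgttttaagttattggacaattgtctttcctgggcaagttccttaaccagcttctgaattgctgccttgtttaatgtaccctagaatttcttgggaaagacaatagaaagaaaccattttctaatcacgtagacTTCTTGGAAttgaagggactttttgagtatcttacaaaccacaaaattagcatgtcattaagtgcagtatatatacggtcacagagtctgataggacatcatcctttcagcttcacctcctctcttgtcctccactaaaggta
Scgb2b20: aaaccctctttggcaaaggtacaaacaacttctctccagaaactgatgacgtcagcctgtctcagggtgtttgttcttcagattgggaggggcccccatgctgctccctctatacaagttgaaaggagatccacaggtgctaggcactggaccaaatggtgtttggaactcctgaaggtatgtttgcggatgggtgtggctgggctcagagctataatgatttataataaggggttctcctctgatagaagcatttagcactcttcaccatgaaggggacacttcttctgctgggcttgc
The Pip window held 2 matches, TTCATAGAA starting 140 bases and TTCTGTGAA starting 42 bases before the start site. Of 32851 RefSeq promoter windows of this length, 8.3% held a match and 0.457% held 2 or more. Csn2, the classic prolactin target of milk, had 1 match, TTCTTGGAA, starting 93 bases before its start. Scgb2b20 had none. AGAACA, or TGTTCT on the other strand, which is the core of a steroid receptor site, occurred 2 times in the Pip window, 1 time in that of Scgb2b20 and not in that of Csn2. In the Pip window AGAACA starts 190 bases before the start site, and TGTTCT lies after it. Of all windows 19% held this core and 2.54% held it 2 or more times. None of these matches overlaps another. A match is a run of letters and not a measured site.

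Before the results, the libraries as a whole: 47.5% to 56.5% of the spots in a channel were well above background and no spot was saturated. The 8 arrays lay on 1 slide with 1 scan time. The 11 luminal epithelial markers, among them Krt8, Krt18 and Epcam, had a mean log2 intensity between 11.88 and 12.16 in every tumour. The mean of the 9 fibroblast markers ran from 9.82 to 12.47, highest in current replicate 3. In such bulk RNA, fewer cells that make Pip and less Pip RNA per cell cannot be told apart.

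Pip was highest in passage 1 under RANK-Fc. Its normalised log2 intensity there was 13.06 in replicate 1, 14.72 in replicate 2 and 13.74 in replicate 3, a mean of 13.84 ± 0.84 (SD, n = 3). The passage 1 controls lay far apart, at 9.69 and 12.47, with a mean of 11.08 ± 1.97 (SD, n = 2). All 3 treated tumours stood above both controls, and the nearest pair was 0.59 apart. In these data 7.57% of 14144 genes with all values had every treated tumour above both passage 1 controls.

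In passage 2 Pip fell into a low and a high pair of groups. The controls measured 5.95 and 6.59, a mean of 6.27 ± 0.45 (SD, n = 2). Tumours with current RANK-Fc alone measured 7.57, 6.61 and 6.96, a mean of 7.04 ± 0.49 (SD, n = 3). The lowest current tumour was only 0.02 above the higher control, so these groups touch, and their means differ by about as much as tumours within them. Tumours with prior RANK-Fc alone measured 9.77, 10.01 and 9.10, a mean of 9.62 ± 0.47 (SD, n = 3). Those with prior and current RANK-Fc measured 10.89, 11.09 and 11.97, a mean of 11.32 ± 0.57 (SD, n = 3). Every tumour with a treated earlier passage thus lay above every passage 2 tumour without one. The share of all genes split in that way was not counted. The tumours treated in both passages lay above those treated in the earlier passage alone, as they did for 4.36% of all genes.

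**Figure D1:**
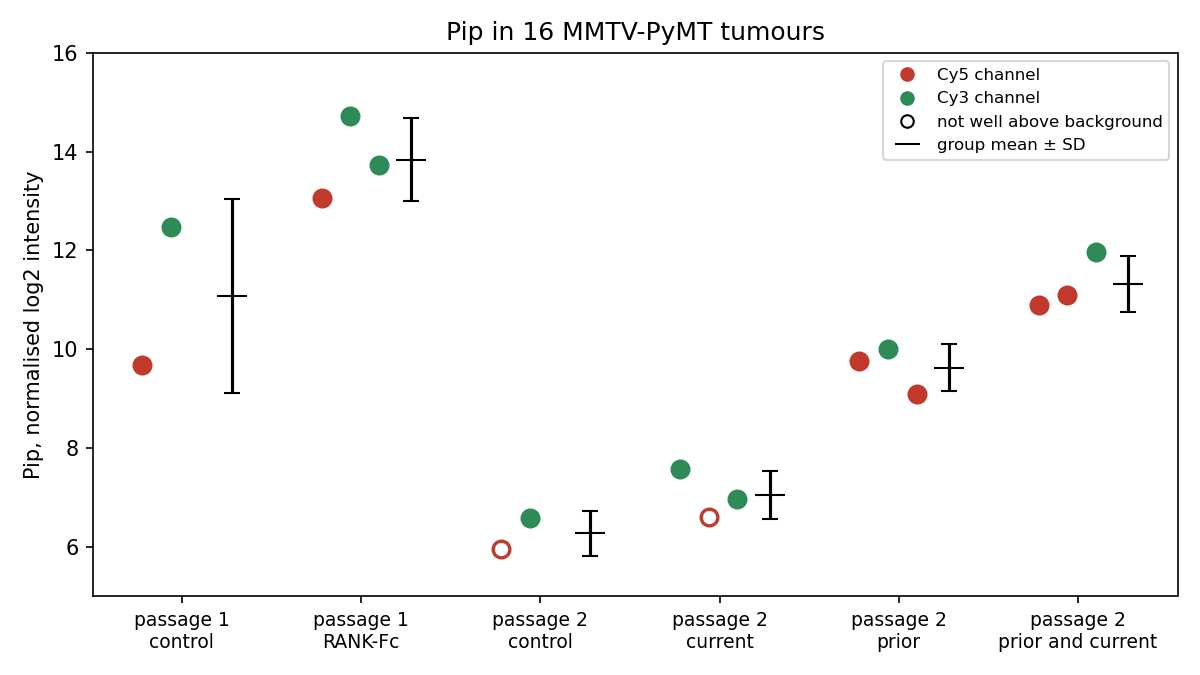
Normalised log2 intensity of Pip (vertical axis) in each of 16 tumours by group, with red points for the Cy5 and green for the Cy3 channel, open where the probe was not well above background, and a bar for the group mean ± SD. The 3 passage 1 RANK-Fc tumours lie at 13.06 or above, and the 2 passage 2 controls at 6.59 or below.

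Near the bottom of this range the probe approached its background. In 14 of 16 tumours it was well above background. The exceptions were passage 2 control replicate 1, with a median intensity of 116 over a local background of 95, and current replicate 2, with 187 over 108. Passage 2 control replicate 2 passed at 50 over 32 and current replicate 3 at 44 over 26. The brightest tumour, passage 1 RANK-Fc replicate 2, read 28623.5 over 28. The means of the passage 2 control and current groups are therefore set in part by background, with 1 of 2 and 2 of 3 tumours measured well above it. No spot of Pip was saturated or marked as uneven.

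Ordered by mean, the groups ran from passage 1 RANK-Fc through passage 2 prior and current, passage 1 control, prior and current RANK-Fc alone down to the passage 2 controls. Of the 15 pairs of groups, 13 did not overlap. They include the current group and the passage 2 controls, which were only 0.02 apart and near background. In the 7 comparisons fitted below, from 4.36% to 26.4% of all genes did not overlap in the direction of Pip. For the other pairs, with the neighbours named last here, that share was not counted. The overlaps were those of the passage 1 controls with both prior groups of passage 2: the control at 9.69 lay inside the range of the prior group, and the 2 controls spanned that of the prior and current group. Neighbours in the order that differed by more than their spread were passage 1 RANK-Fc and prior and current, 1.09 apart at the nearest tumours, and prior and current alone, 1.53 apart.

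Differences in Pip were estimated from a model over all tumours that has the dye as a term, and each is given with its standard error (SE). Passage 1 tumours with RANK-Fc were 2.54 ± 0.41 (SE) above their controls. The value rested on which control was used, being 3.49 against passage 1 control replicate 1 alone and 1.55 against its replicate 2 alone. Current RANK-Fc in passage 2 gave 0.61 ± 0.41, which became 0.21 without passage 2 control replicate 2, 0.33 without current replicate 2 and 0.91 without passage 2 control replicate 1. The difference between these treatment effects was 1.93 ± 0.57 (SE). The passage 2 effect lies between groups set in part by background, which limits its size. With the scanner's processed signals the effects were 2.42 in passage 1 and 1.07 in passage 2. The limma test used Benjamini-Hochberg adjustment over 14147 genes and an adjusted p under 0.05. No gene passed it in either comparison with controls (percent called 0), while 1.58% and 3.99% of genes had an unadjusted p under 0.05. In the test of the difference between the effects no gene passed either, and 252 had an unadjusted p under 0.05. For current RANK-Fc, 7.53% of genes had all 3 tumours above both controls.

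Prior RANK-Fc alone put Pip 3.48 ± 0.41 (SE) above the passage 2 controls, and prior and current RANK-Fc 5.21 ± 0.43. In these comparisons 11.9% and 10.6% of genes had every treated tumour above both controls, and the limma test called 0.00707% and 0.0778% of genes, which is 1 gene and 11 genes. Pip is in both counts, which add nothing to its description, since it was chosen for these differences. Adding current to prior RANK-Fc went with a further 1.73 ± 0.37 (percent called 0, and 4.36% of genes not overlapping and higher). Against current RANK-Fc alone, prior and current stood higher in all 3 tumours, by 3.33 at the nearest pair (percent called 0.148, and 5.71% of genes not overlapping and higher). The fitted difference was 4.60 ± 0.38 (SE), and 6.75 with the scanner's processed signals, against a group with 1 of 3 tumours at background. Averaged over tumours with and without current RANK-Fc, the difference for prior RANK-Fc was 4.04 ± 0.29. The step with current RANK-Fc was 1.12 ± 0.53 (SE) larger after prior RANK-Fc than without it. No gene passed the test of that difference, and 960 had an unadjusted p under 0.05. The step without prior RANK-Fc lies between groups set in part by background, which limits its size. With processed signals the step was 1.81 after prior RANK-Fc and 1.07 without it.

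Between the untreated tumours, Pip was lower in passage 2 than in passage 1 by 4.87 ± 0.47 (SE) on the log2 scale. Its size is set in part by background, as 1 of 2 passage 2 controls was well above it. With the scanner's processed signals the difference was -7.27. The direction was the same with either passage 1 control left out, at -5.84 for replicate 1 and -3.90 for replicate 2. This comparison called 3.27% of all genes, 463 in number, 132 higher and 331 lower, and 26.4% of genes had both passage 2 controls below both of passage 1. Leaving out the passage 2 controls in turn gave 166 (without replicate 1) and 11 (without replicate 2) called genes, and leaving out the passage 1 controls 63 and 93. Passage 1 tumours with RANK-Fc stood 2.20 ± 0.39 (SE) above tumours with prior and current RANK-Fc. All comparisons with a control group share its 2 tumours.

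**Figure D2:**
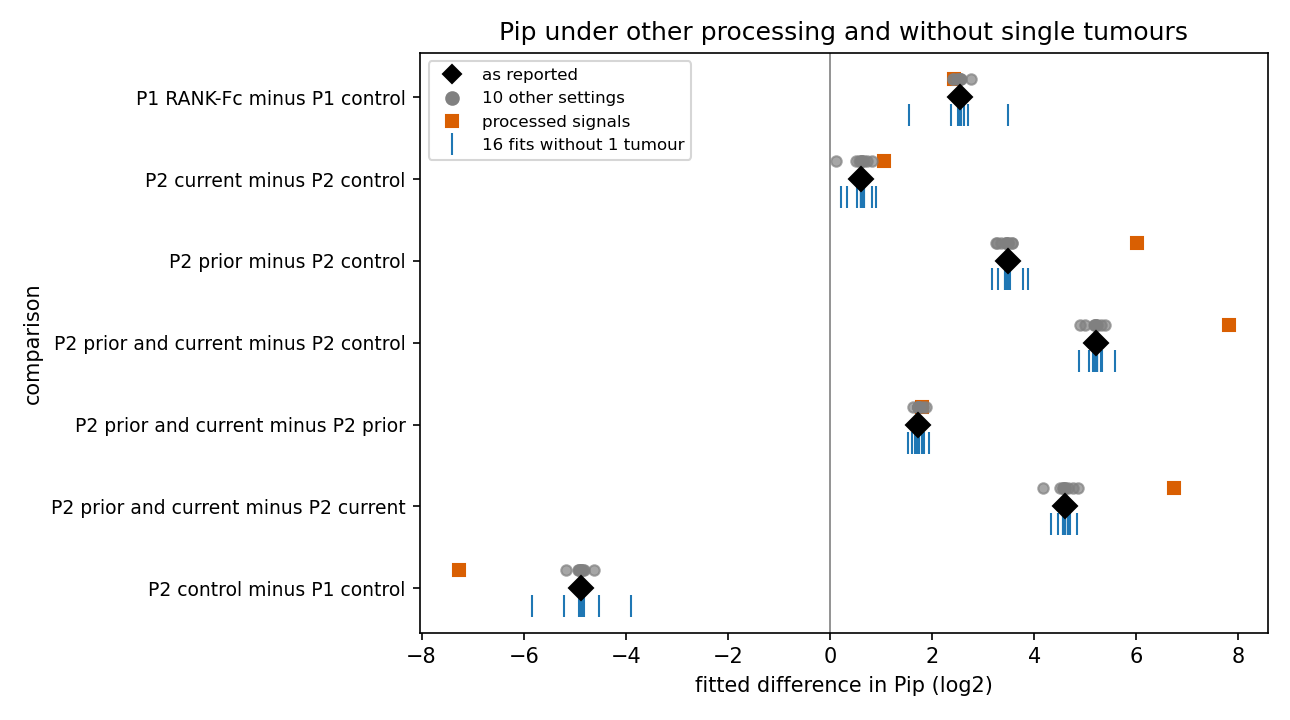
Fitted log2 difference in Pip (horizontal axis) for 7 comparisons, P1 and P2 being the passages, as reported (diamonds), under 10 other settings (grey), with the scanner's processed signals (orange) and in 16 fits that each left out 1 tumour (blue ticks). Each keeps its sign throughout; the processed signals move 4 differences that involve the dim groups, for example from 3.48 to 6.01.

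The colour of the channel moved with Pip as well. In 6 of 6 groups every Cy3 tumour lay above every Cy5 tumour, and the fitted Cy5 minus Cy3 difference was -1.07 ± 0.22 (SE). Its cause was not tested. Among the 8 Cy5 tumours alone, passage 1 RANK-Fc at 13.06 exceeded the control at 9.69, prior and current at 10.89 and 11.09 exceeded prior at 9.77 and 9.10, and the current tumour at 6.61 and the passage 2 control at 5.95 were both not well above background. Among the 8 Cy3 tumours, passage 1 RANK-Fc at 14.72 and 13.74 exceeded the control at 12.47, prior and current at 11.97 exceeded prior at 10.01, and current at 7.57 and 6.96 exceeded the control at 6.59. Each dye on its own thus gave the same direction for RANK-Fc in passage 1 and for prior and current against prior. For current RANK-Fc against its control the Cy5 values give no direction, as both lie at background.

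Tumours that shared an array can be set against each other without any step between arrays. Passage 1 RANK-Fc exceeded its array partner by 5.49 (current), 4.96 (prior) and 4.05 (passage 1 control). A prior tumour exceeded a passage 2 control by 4.06, and prior and current tumours exceeded a current tumour by 4.14 and a prior tumour by 2.87. A passage 1 control exceeded a prior and current tumour by 1.58. These values still hold the dye difference: the higher tumour was in Cy3 on 5 arrays, that last one included, and in Cy5 on 3. On the array that held current replicate 2 and passage 2 control replicate 2 the difference was 0.02. There the deposited log10 ratio, at -0.218 for current over control, had the opposite sign; on the other arrays both measures had the same sign.

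**Figure D3:**
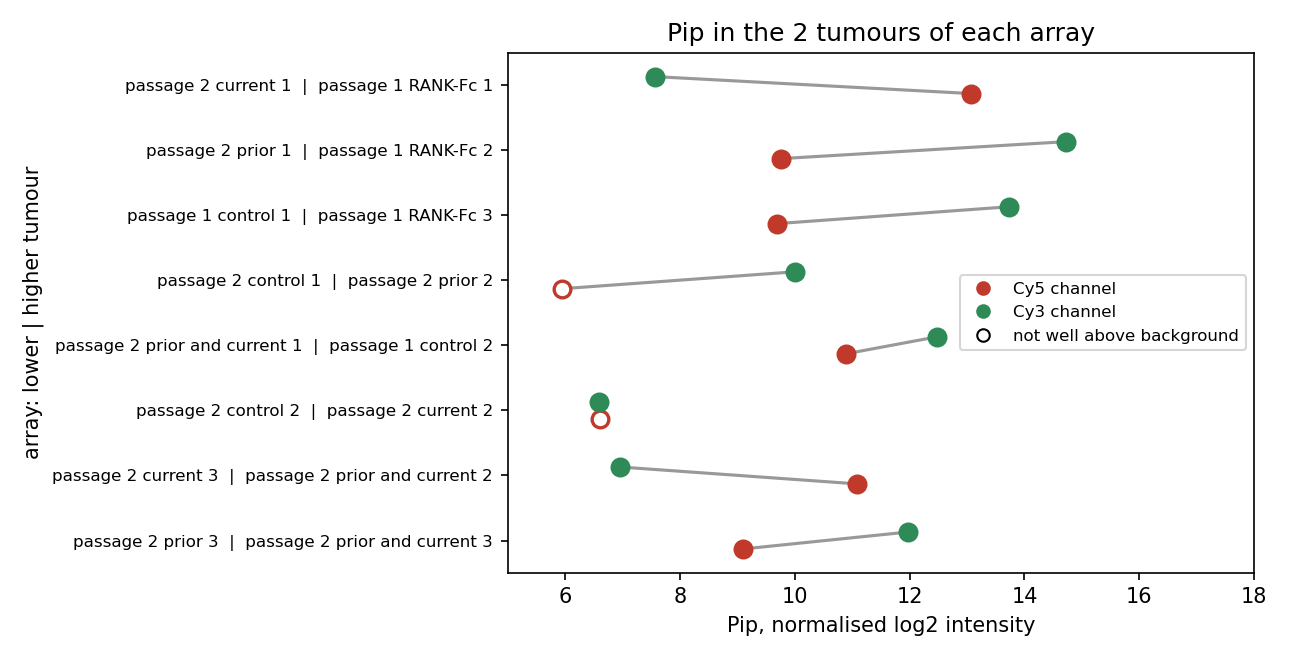
Normalised log2 intensity of Pip (horizontal axis) in both tumours of each of 8 arrays (rows, lower tumour named first), coloured by channel and open where not well above background. The pair of current replicate 2 and passage 2 control replicate 2 differs by 0.02, and the remaining pairs by 1.58 to 5.49.

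Secretoglobins were prominent among the genes whose levels were most like that of Pip. Over the 16 tumours, which share arrays, dyes and groups, the highest Pearson correlation belonged to Cpd, carboxypeptidase D, a processing enzyme of the secretory pathway (r = 0.96, Spearman's rho = 0.94). Then came Scgb2b15, Scgb2b20 and Scgb2b27 (each r = 0.94), Scgb2b2 and Scgb1b27 (each 0.93), and Scgb1b3 (0.92). These code for small secreted proteins of the androgen-binding protein family, found in mouse saliva and tears. The others of the first 10 were Adcy9, an adenylate cyclase, Sel1l3 and Gramd1c (each 0.92). Of 14146 other genes, 14 had an r over 0.9, 134 or 0.947% over 0.8, and 48 under -0.8. Most opposite were the tetraspanin gene Tspan33 (-0.91), the membrane protease gene Tmprss4 and the metallothionein gene Mt2 (each -0.90), Chrdl2, a bone morphogenetic protein antagonist (-0.89), and Tpst2, a tyrosylprotein sulfotransferase (-0.88).

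The likeness lay largely between groups. By Spearman's rho 8 of these 10 remained among the first 10, within passage 2 alone (11 tumours) 7, and without the 2 tumours farthest from the median of Pip 7. By deviations from the group means 0 remained, although their r within groups still ran from 0.57 for Adcy9 to 0.80 for Scgb2b15. These deviations still hold the dye difference, as every Cy3 tumour exceeded every Cy5 tumour for Pip in 6 of 6 groups. The r within groups therefore cannot separate likeness between tumours from the dye. Cpd measured 11.37 and 11.81 in the passage 1 controls, 11.67, 12.28 and 12.03 with RANK-Fc, 9.66 and 9.62 in the passage 2 controls and 10.05, 9.89 and 10.21 with current RANK-Fc. It was 10.74, 10.93 and 10.31 in the prior group and 10.61, 11.04 and 11.33 in the prior and current group. The prior groups thus overlapped in Cpd, where they did not in Pip. These genes were picked for following Pip, so their group differences are no further evidence. None of the 8 with a promoter window in the table, among the 10, had a TTCNNNGAA match. Of all windows only 8.3% held one, so its absence from 8 is unremarkable.

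**Figure D4:**
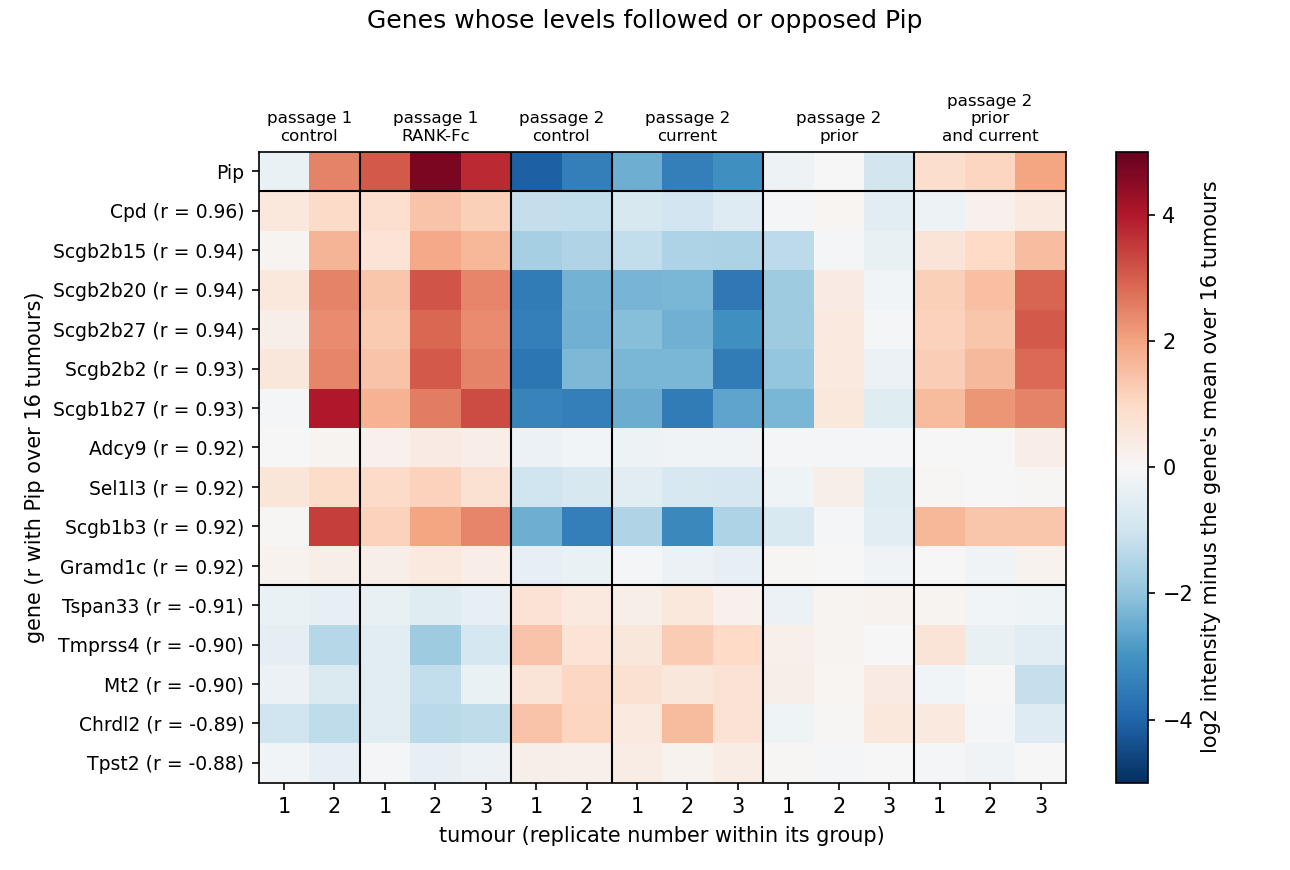
Log2 intensity minus each gene's own mean (colour, red above and blue below) for Pip, the 10 most like and the 5 most opposite genes (rows, with r over 16 tumours) in 16 tumours (columns by group). Pip, Scgb2b20 and Scgb2b27 are lowest in the 5 tumours of the passage 2 control and current groups, where Mt2 and Tspan33 are highest.

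The calls that follow come from the fit over both channels. From log ratios within arrays alone, with 2 residual degrees of freedom, limma called 0 genes in each of the 7 comparisons, so none of them stands in that setting; from 243 to 1691 genes had an unadjusted p under 0.05.

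Secreted proteins of salivary and lacrimal glands, the other tissues that make PIP, were followed through a list of 37 genes, of which 34 had a probe and 26 were bright enough to test. In prior and current against passage 2 controls, 6 of the 26 rose and none fell, with a median difference of 0.78 against -0.003 for all genes; the test called 0.0707% of all genes higher. The 6 were Scgb1b27, at 5.64 ± 0.71 (SE, limma adjusted p = 0.00658), Scgb1b30, Scgb2b2, Scgb2b20, Scgb2b27 and Scgb1b3, the last at 4.31 ± 0.64. Without passage 2 control replicate 2 none of the 6 passed (adjusted p from 0.14 to 0.636), without prior and current replicate 1 there passed 5 and without its replicate 2 there passed 4. Without a dye term none passed (adjusted p from 0.101 to 0.132). In the same comparison 0 of 7 T and NK cell and 0 of 6 macrophage markers had a positive difference (medians -0.62 and -0.46), and 7 of 7 adipocyte markers did (0.48); none passed. The list was chosen with these differences known. All of the 6 except Scgb1b30 are also among the 10 genes picked above for following Pip, and Scgb1b30 had an r of 0.91. Their calls, here and below, are therefore no further evidence for the pattern of Pip. Several of these probes target near-identical gene copies, so that a probe may also pick up RNA of another copy.

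Against current RANK-Fc alone the same 6 genes rose in the prior and current tumours, with a median of 0.49 over the 26 (all genes -0.007; 0.12% called higher and 0.0283% lower). Scgb2b27 was 4.75 ± 0.46 (SE) higher (limma adjusted p = 0.00141). It measured between 13.20 and 15.11 there, against at most 9.91 with current RANK-Fc, 8.64 and 9.66 in the passage 2 controls and 10.27 to 12.55 with prior RANK-Fc. Of the 6 calls, 4 remained in every fit that left out a tumour of these groups, while Scgb1b30 and Scgb1b3 did not (without current replicate 3 their adjusted p was 0.0983 and 0.165). Without a dye term 0 of the 6 passed, and with these 2 groups fitted alone 1 did. With prior RANK-Fc alone and in both comparisons within a passage of current treatment against none, 0 of the 26 passed. Scgb2b27 then differed by 2.71 ± 0.50 with prior RANK-Fc (adjusted p = 0.11), by 0.31 ± 0.50 with current RANK-Fc and by 0.68 ± 0.50 with RANK-Fc in passage 1.

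Between untreated passages 10 of the 26 fell and none rose, with a median of -1.88 against -0.02 for all genes and 2.34% of all genes called lower. They were the 6 secretoglobins, Scgb1b20, Car6, a secreted carbonic anhydrase of saliva, Wfdc12, a protease inhibitor, and Dmbt1, a salivary agglutinin. Scgb1b27 fell by 5.42 ± 0.78 (SE, limma adjusted p = 0.00491). Car6 fell by 2.81 ± 0.68 (SE, limma adjusted p = 0.0451). Car6 and Dmbt1 each passed in 6 of 10 other settings of the fit over both channels. With processed signals 7 of the 10 genes passed, and with these 2 groups fitted alone 4. Over all fits the difference ran from -4.02 to -1.61 for Car6, -4.62 to -0.90 for Dmbt1 and -2.77 to -1.92 for Wfdc12. Dmbt1 entered the test only through the passage 1 controls, the group in which it is high, so its place among the 10 is not independent of the filter. Markers of other cells differed in the same comparison, with 0 of 7 adipocyte markers positive (median -1.54) and 1 of 9 fibroblast markers (median -1.42); none of these passed, and their part in the result was not tested. Without passage 2 control replicate 2 none of the 10 passed (adjusted p from 0.0833 to 0.387), and 7 passed without its replicate 1. Without passage 1 control replicate 1 there passed 9, and without its replicate 2 there passed 5.

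Demilune cell proteins, salivary products coded by Dcpp1, Dcpp2 and Dcpp3, had no call in any of the 7 comparisons. Dcpp3 measured 8.35 and 7.60 in the passage 2 controls, 11.70, 10.90 and 13.38 with prior RANK-Fc and 10.27, 9.16 and 7.73 with prior and current RANK-Fc. With prior RANK-Fc its fitted difference from controls was 3.65 ± 1.51 (SE, limma adjusted p = 0.58), against 3.48 for Pip. Between the groups with prior RANK-Fc the order of the measured values was the reverse of that for Pip, and they did not overlap in either gene; 5.42% of genes had every prior and current tumour below every prior tumour. The fitted difference of prior and current minus prior for Dcpp3 was -2.87 ± 1.35 (SE), against 1.73 for Pip, and did not pass (limma adjusted p = 0.513). Over the 16 tumours Dcpp3 had an r of 0.72 with Pip, with both high in passage 1.

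**Figure D5:**
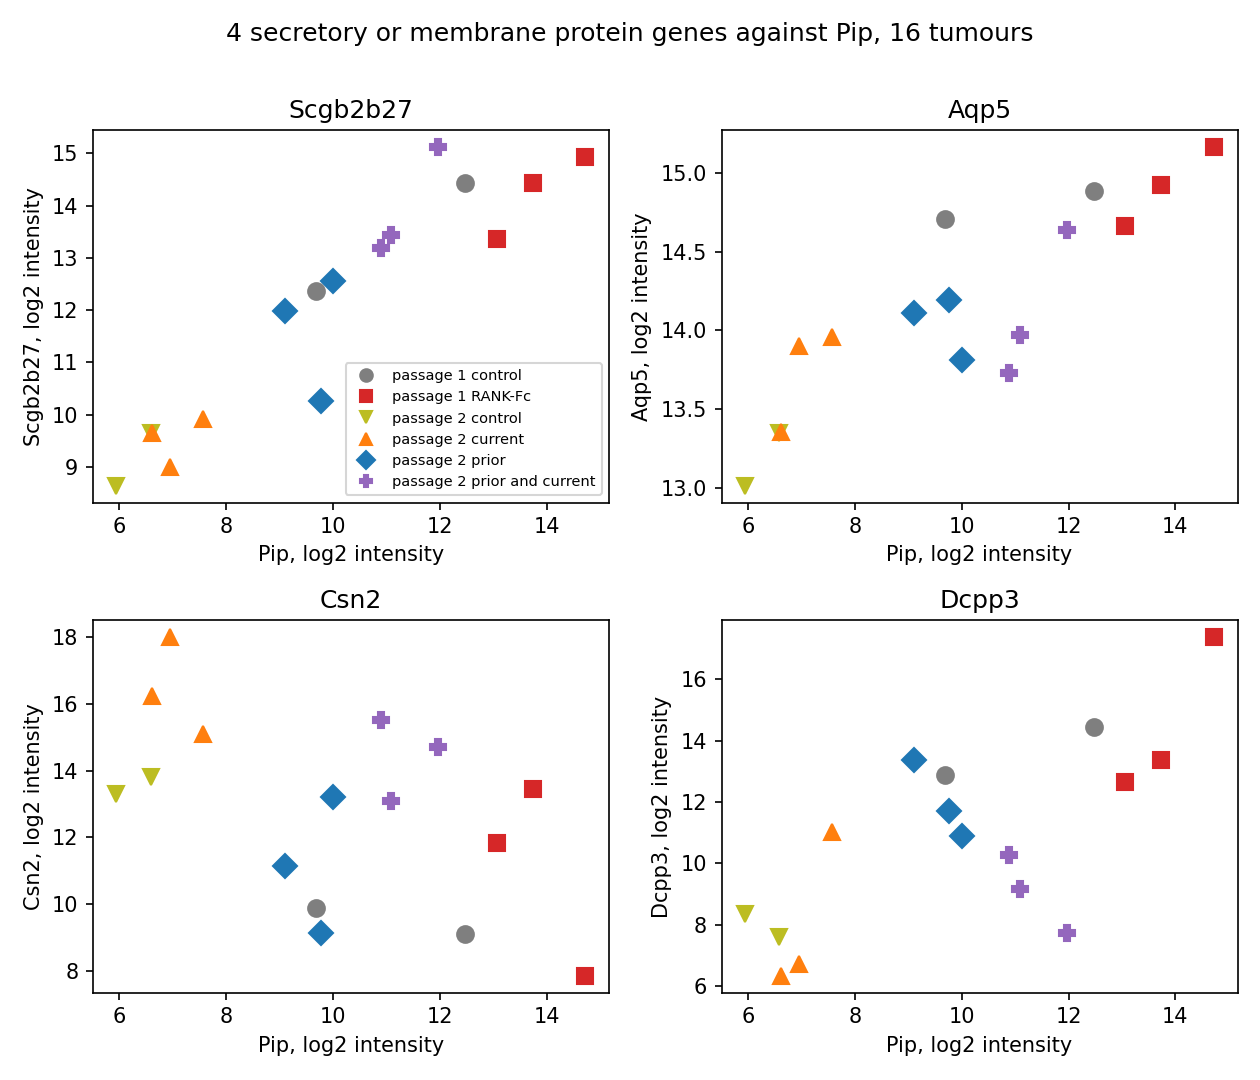
Log2 intensity of Scgb2b27, Aqp5, Csn2 and Dcpp3 (vertical axes) against that of Pip (horizontal axes), 1 point per tumour, shaped and coloured by group. Scgb2b27 is high where Pip is high (r = 0.94). Aqp5 is highest in passage 1 (r = 0.87), but its current and prior groups overlap, unlike those of Pip. Csn2 is highest in the current group where Pip is low, and Dcpp3 is lower in the prior and current than in the prior group.

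Of 17 tested genes of milk proteins, the classic products of prolactin and STAT5, none passed in any of the 7 comparisons. Csn2 measured 9.90 and 9.12 in passage 1 controls and 11.83, 7.86 and 13.46 with RANK-Fc there. In passage 2 it was 13.28 and 13.79 in controls, 15.08, 16.24 and 17.98 with current RANK-Fc, 9.13, 13.22 and 11.13 with prior RANK-Fc and 15.50, 13.07 and 14.69 with both. Its highest group was thus the current group, in which Pip was near background, and its r with Pip was -0.53. With prior RANK-Fc alone 2 of the 17 genes had a positive difference from passage 2 controls, with a median of -0.36, while 17 of 17 did with current RANK-Fc, with a median of 0.51; of all genes 48.8% and 54.6% were positive. With current RANK-Fc positive differences were also found for T and NK cell genes (7 of 7, median 0.11), fibroblast genes (9 of 9, 0.81) and macrophage genes (6 of 6, 0.44); none passed, and their part in the result was not tested. In the other comparisons with treated tumours the milk genes were positive in 14 of 17 in passage 1 (median 0.28), 12 of 17 for prior and current against controls (0.26), 14 of 17 against prior (0.69) and 3 of 17 against current (-0.85). Between the untreated passages 12 of 17 were positive (0.49), where Pip was lower. Over the 17 genes r with Pip ran from -0.68 for Lalba, alpha-lactalbumin, to 0.18 for Spp1. It was -0.55 for Wap, whey acidic protein, and 0.02 for Ltf.

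Of the prolactin pathway itself, 18 genes were listed and 16 tested. Prlr, the prolactin receptor, stayed between 11.05 and 11.87 in all tumours, with an r of 0.10 with Pip. Stat5a and Elf5, a transcription factor that acts with it in alveolar cells, had an r of -0.54 and -0.55. Socs2, a feedback inhibitor of this signalling, fell by 1.66 ± 0.35 (SE, limma adjusted p = 0.0243) from passage 1 to passage 2 controls and had an r of 0.75. Leaving out passage 1 control replicate 2 gave -0.94 (adjusted p = 0.158), and leaving out either passage 2 control lost the call too (adjusted p = 0.121 for replicate 1 and 0.244 for replicate 2). Ghr, the growth hormone receptor, was higher in prior and current than in current alone by 0.79 ± 0.14 (adjusted p = 0.0473), in 1 of 6 fits without a tumour of these groups. The Ghr call passed in 3 of 10 other settings of the fit over both channels. Among those that lost it were no background subtraction (limma adjusted p = 0.0573) and no dye term (0.216). These were the 2 calls of the list, in comparisons that called 2.34% of all genes lower and 0.12% higher. The ligand gene Tnfsf11, which codes for RANK ligand, was well above background in at most 1 tumour.

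Genes of androgen response and apocrine glands gave 17 tested of 20 listed. Foxa1, a pioneer transcription factor of luminal cells, was the 1 call, in a comparison that called 2.34% of all genes lower. It measured 8.37 and 8.43 in the passage 1 controls and was not well above background in either passage 2 control, at least 4.19-fold lower (limma adjusted p = 0.00906). That fold sets the passage 1 mean against the higher of the dim value and the lowest signal well above background. Foxa1 entered the test only through the passage 1 groups, where it is high. It was lost on leaving out either passage 1 control (limma adjusted p = 0.0796 for replicate 1 and 0.061 for replicate 2) or passage 2 control replicate 2 (0.155). Spdef, a transcription factor of secretory cells, had the highest mean in the prior and current group, 12.33 ± 1.02 (SD, n = 3), against 10.22 ± 0.70 (SD, n = 2) in passage 2 controls. Its difference of 2.26 ± 0.39 (SE) did not pass (limma adjusted p = 0.0597). Azgp1, which codes for a partner of PIP and is itself apocrine, was well above background in at most 4 tumours.

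Among the genes of reported PIP partners, 4 of 5 were tested. Aqp5, aquaporin 5, followed Pip most closely, with an r of 0.87. It measured 14.71 and 14.88 in passage 1 controls, 14.66, 15.16 and 14.92 with RANK-Fc, 13.01 and 13.35 in passage 2 controls and 13.96, 13.35 and 13.90 with current RANK-Fc. With prior RANK-Fc it was 14.19, 13.81 and 14.11, and with both 13.73, 13.97 and 14.63. From passage 1 to passage 2 controls it fell by 1.59 ± 0.22 (SE, limma adjusted p = 0.0044). That comparison called 2.34% of all genes lower, and in 26.4% of genes both passage 2 controls lay below both of passage 1. Leaving out passage 2 control replicate 2 lost that call (adjusted p = 0.0931). In the 6 remaining comparisons it did not pass. Cd4, Fn1 and Actb did not pass in any comparison, with r of -0.42, 0.02 and -0.33.

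The genes beside Pip on chromosome 6 stayed dim. Its relatives Sval1, Sval2 and Sval3, seminal vesicle antigen-like genes of the same family, were well above background in 0 of 16 tumours. Sva, the seminal vesicle antigen gene, reached that level in 8 tumours, between 6.22 and 6.73. Of 10 neighbouring genes with a probe, Trpv6, a calcium channel, was the other that could be tested, at 6.34 to 7.39 with an r of 0.62. Neither Sva nor Trpv6 passed in any comparison; the largest difference of Trpv6 was 0.60 ± 0.14 (SE), with prior RANK-Fc (limma adjusted p = 0.215). Kel, Llcfc1, Trpv5, Olfr459 and Tas2r139 were well above background in 0 to 4 tumours.

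Markers of other tissues were measured beside Pip. The mean of 7 tested salivary acinar markers ran from 7.87 to 12.79. It had an r of 0.80 with Pip over the 16 tumours, and of 0.57 within passage 2. Of the 11 listed, Bpifa1 and Mucl2 were well above background in 0 tumours, Bpifa2 in at most 3 and Smr3a in at most 5. Of the others, Dcpp3 reached 17.37, Dcpp1 16.06, Dcpp2 14.59 and Prol1 10.79 in their highest tumour. Amy1, salivary amylase, was well above background in 16 of 16 tumours, between 6.54 and 8.08. Bhlha15 was too, between 11.68 and 13.49, with an r of 0.50. It had a mean of 12.28 in passage 1 controls and 12.27 in passage 2 controls. The mean of the 7 markers was 10.77 and 11.83 in passage 1 controls and 10.72 to 12.79 with RANK-Fc there. In passage 2 it was 8.32 and 8.39 in controls and 7.87 to 9.53 with current RANK-Fc. With prior RANK-Fc it was 9.53 to 10.57, and with prior and current RANK-Fc 8.99 to 9.79. Its 7 genes include the Dcpp genes, which stand on the secreted list too, and Etv1, a transcription factor gene with an r of 0.89. Etv1 was higher in prior and current than in current tumours by 1.81 ± 0.28 (SE, limma adjusted p = 0.0286), in 2 of 6 fits without a tumour of these groups. From passage 1 to passage 2 controls it fell by 2.01 ± 0.34 (limma adjusted p = 0.0107), in 1 of 4 such fits. Of 9 basal and myoepithelial markers 1 passed, Oxtr, the oxytocin receptor gene, which fell by 2.07 (limma adjusted p = 0.00962) from passage 1 to passage 2 controls, in 2 of 4 such fits (2.34% of all genes called lower). The luminal epithelial mean had an r of -0.14, the fibroblast mean 0.28, the adipocyte mean 0.22, the macrophage mean -0.34 and the T and NK cell mean -0.53. In prior and current against current RANK-Fc 0 of 6 macrophage, 0 of 7 T and NK cell and 0 of 9 fibroblast markers had a positive difference, with medians of -0.95, -0.81 and -0.80, and none passed; 48.7% of all genes were positive. The part of other cell types in the level of Pip was not tested.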

How the data were processed

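Total RNA of 16 tumours was measured on 8 Agilent arrays with 2 colours. The submitters' processing notes name Agilent's software Feature Extraction, version 10.7.3.1. The deposited files give linear median intensity and background intensity per spot, processed intensity corrected for background and dye, and a log10 ratio of red over green, per the file headers, with other marks per spot coded 0 or 1. A deposited table of normalised values has 8 columns whose names match no label, and it was not used.

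Spots marked uneven or outlying were dropped. Median intensities were corrected with normexp (offset 50), normalised by loess and Aquantile, and kept as log2. Probes that passed the scanner's background test in all tumours of 1 or more of 6 groups were fitted, and the brightest such probe stood for its gene. The log2 values of both channels were fitted with limma 3.58.1 in R 4.3.3, statmod 1.5.0, data.table at 1.17.8 and jsonlite 2.0.0 (6 group means, a dye term, an intraspot correlation, 9 residual degrees of freedom). limma's correlation of 0.419 was corrected to 0.221 by simulation of 4000 genes. Names came from RefSeq accessions. On simulated data for prior and current against control, run on 14147 genes, 80 of 100 genes changed by 1 (log2) and 91 of 100 changed by 2 were recovered, with 11 unchanged genes called. Figures used Python 3.11.15 and matplotlib 3.10.9.

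Pip, the gene lists and the comparisons were chosen with earlier results of these data known. The rule for named genes was Pip, list members that passed and up to 4 others of a list, the 10 most like and 5 most opposite genes by Pearson's r, and up to 5 neighbours on each side. Prlr, Lalba, Wap, Spp1, Ltf, Amy1, Bhlha15 and genes too dim to test are named outside it. They were named for their known roles or to show the range of a list, after their values were seen. Not every listed gene is reported here. The number of arrays limits the precision. Alternatives were other background, normalisation, filter, dye, probe and correlation settings and leaving out each tumour; 1 more, setting dim Pip values at the lowest signal well above background, was chosen after seeing the data.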

Additional observations from a re-analysis of the deposited data

How the results depend on the processing

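Every difference in Pip kept its sign in 11 other settings and in 16 fits without 1 tumour. With processed signals it was 6.01 for prior, 7.82 for prior and current, each against passage 2 controls, 6.75 for prior and current against current, and -7.27 for passage 2 against passage 1 controls. Dim values set at the lowest signal well above background gave 3.44 for prior. Over fits without 1 tumour the Pip differences ran from 1.55 to 3.49 in passage 1, 0.21 to 0.91 for current, 3.18 to 3.88 for prior, 4.88 to 5.58 for prior and current, 1.53 to 1.94 for the last against prior, 4.33 to 4.84 against current and -5.84 to -3.90 between controls. Counts of called genes ran, in this order, from 0 to 4, 0 to 5, 0 to 6, 1 to 24, 0 to 26, 6 to 367 and 11 to 587.

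The count for prior, 1 as reported, was 0 with no background subtraction, no filter, log ratios alone or no dye term, 2 with quantile normalisation or fitting 2 groups, 3 with median centring and 5 with the uncorrected correlation. The 1 gene as reported is Pip, chosen for this difference, so this count adds nothing to its description. For prior and current the count was 18 (median centring), 20 (uncorrected correlation) and 0 (log ratios alone, or no dye term). Against current it was 32 (quantile normalisation), 209, of which 106 higher (uncorrected correlation), 2 (fitting 2 groups) and 0 (log ratios alone, or no dye term). Between controls it was 306 with median centring (17.97% higher, against 28.51%), 305 without the dye term, 732 when fitting 2 groups and 0 from log ratios alone. With median centring 94.4% of the calls against current were higher, against 81.0%. The causes were not tested. No paired analysis was possible by replicate number because these numbers, given in accession order, only name tumours; tumours that share an array are paired in the fit and in the log ratios. Signal over background limits Pip in the passage 2 control and current groups.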
